A study of Mus musculus with 50 samples.

Results

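A set of 10 genes was followed across 18 embryonic mouse brains: Pnpla6, Gas2l1, Abca7, Plin3, Sirt6, Igsf8, Cnp, Tep1, Zfp335 and Tmem44. They are 10 of the 11708 genes in the deposited count table, and all 10 passed the filter on low counts, which removed 0 genes. They were picked from these same libraries, as moderately expressed genes that read higher in brains homozygous for a Gtf2i mutation and not in brains homozygous for a Gtf2ird1 mutation. Their values in those homozygotes, and the difference between the homozygous effects, are therefore descriptions. No p-value of a member is printed for them, and counts of members called there follow from the choice.

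RNA was sequenced from whole brains of embryos at E13.5 (embryonic day 13.5) of the strain labelled FVB/ANTJ, after depletion of ribosomal RNA, in 6 groups of 3 libraries. One comparison, called the gtf2i cross here, held embryos labelled wt (no mutant allele named), gtf2i (read as 1 mutant Gtf2i allele) and gtf2i/gtf2i (both alleles mutant). The other, the ird1 cross, held its own wt embryos, ird1 (read as 1 mutant Gtf2ird1 allele) and ird1/ird1. The labels give neither the lesion in each allele nor the sex or number of litters, and each library was taken as 1 embryo. A further 32 chromatin immunoprecipitation and input samples were not analysed here. Total counts ran from 3239117, in the wt library numbered 2 of the ird1 cross, to 7371483.

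Gtf2i encodes TFII-I, a transcription factor that shuttles between cytoplasm and nucleus, contacts initiator and E-box elements, and can activate or repress its targets. Gtf2ird1 encodes a relative built from the same kind of repeats, and both genes lie in the region deleted in Williams syndrome. Gtf2i itself stood at 624 ± 30.7 CPM (counts scaled to a common library total, mean ± SD, n = 3) in wt, at 368 ± 6.23 in gtf2i and at 82.5 ± 0.797 in gtf2i/gtf2i brains. Gtf2ird1 stood at 92.4 ± 7.32 CPM in wt and 267 ± 21.0 in gtf2i/gtf2i brains. In the ird1 cross Gtf2ird1 stood at 98.2 ± 13.5 CPM in wt and 223 ± 4.21 in ird1/ird1, so its RNA level gave no check of the ird1/ird1 label as a loss, whereas Gtf2i stood between 583 and 641 CPM in all 9 libraries.

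The 10 genes belong to different families. Pnpla6 encodes neuropathy target esterase, which removes fatty acids from phosphatidylcholine and its lyso form at the endoplasmic reticulum. Abca7 encodes a lipid transporter of the ABCA family that moves phospholipids across membranes, and Plin3 encodes a perilipin that coats lipid droplets. Gas2l1 links actin filaments to microtubules, Igsf8 encodes an immunoglobulin-domain partner of tetraspanins, and Cnp encodes a cyclic nucleotide phosphodiesterase best known from myelin. Sirt6 is a nuclear NAD-dependent deacylase of histones that acts in DNA repair, Tep1 binds telomerase and vault RNA, and Zfp335 is a zinc-finger protein found with histone methyltransferase complexes and needed by neural progenitors. Tmem44 encodes a transmembrane protein. At the level per kilobase of transcript in wt brains of the gtf2i cross, Igsf8 was the most abundant at 44.9 CPM per kilobase and Tep1 the least at 1.81, with Sirt6 at 28.5, Tmem44 at 18, Zfp335 at 10.8, Pnpla6 and Gas2l1 at 8.41 each, Cnp at 6.75, Plin3 at 6.56 and Abca7 at 4.72.

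The genes were spread over 8 chromosomes of the mouse assembly GRCm38 (mm10), none of them chromosome 5, where Gtf2i and Gtf2ird1 lie 39983 bases apart. Promoter sequences from RefSeq (GRCm38.p6, 250 bases before to 50 after each start) matched 8 of the 10 genes with 11 starts, and Gas2l1 and Tep1 were not matched. Shown here are the upstream bases, outside any annotated RefSeq gene, of the members with at least 100 such bases, so that motifs can be compared between promoters of genes with a like pattern. They are written 5′ to 3′ on the strand of the gene, with every CCAAT (or ATTGG) and GGGCGG (or CCGCCC) in capitals. Igsf8 lies on the plus strand at chr1:172312117-172312366, Abca7 on the plus strand at chr10:79996244-79996452, Cnp on the plus strand at chr11:100574689-100574908 and Plin3 on the minus strand at chr17:56290512-56290761.
Igsf8: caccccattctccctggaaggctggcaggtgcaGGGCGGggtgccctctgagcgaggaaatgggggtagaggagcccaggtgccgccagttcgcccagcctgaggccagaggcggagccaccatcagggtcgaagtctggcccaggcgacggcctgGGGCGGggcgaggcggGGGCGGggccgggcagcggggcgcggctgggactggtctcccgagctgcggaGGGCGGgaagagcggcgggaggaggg
Abca7: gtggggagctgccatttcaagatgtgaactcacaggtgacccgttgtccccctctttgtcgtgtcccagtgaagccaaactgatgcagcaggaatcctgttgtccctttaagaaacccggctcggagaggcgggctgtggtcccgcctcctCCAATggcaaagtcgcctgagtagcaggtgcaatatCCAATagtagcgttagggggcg
Cnp: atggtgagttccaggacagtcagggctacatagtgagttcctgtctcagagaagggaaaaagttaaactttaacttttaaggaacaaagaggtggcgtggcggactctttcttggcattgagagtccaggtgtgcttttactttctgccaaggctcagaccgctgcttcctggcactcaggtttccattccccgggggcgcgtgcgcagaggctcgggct
Plin3: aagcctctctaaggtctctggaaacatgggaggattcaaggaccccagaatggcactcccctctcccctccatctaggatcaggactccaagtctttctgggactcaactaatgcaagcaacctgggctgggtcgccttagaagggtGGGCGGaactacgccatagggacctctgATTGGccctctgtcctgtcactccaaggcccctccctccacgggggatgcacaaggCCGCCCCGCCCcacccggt
The upstream stretch of Igsf8 held 4 GGGCGG, that of Abca7 held 2 CCAAT, that of Plin3 held 1 ATTGG and 3 GC boxes, of which the CCGCCC pair at 19 and 14 bases before the start overlaps, and that of Cnp held neither motif.

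Over whole 300-base windows, both strands searched, GGGCGG was found in 6 of the 11 member promoters (Abca7, Cnp, Igsf8, Plin3 and 1 each of Pnpla6 and Sirt6) and in 64.7% of the 11763 promoters of measured genes. CCAAT was found in 3 of the 11 (Abca7, Plin3 and 1 of Pnpla6) and in 37.7% of those promoters. The E-box CACGTG (9.86% of promoters of measured genes), the GGATTA core that GTF2IRD1 is known to bind (5.28%) and TATAAA (6.58%) matched none of the 11 member windows. These are matches of letters only. The median GC content was 59.7% in member windows and 61.7% in those of measured genes.

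Pnpla6 had the largest change of the 10. It stood at 51.0, 45.3 and 48.6 CPM in the wt libraries of the gtf2i cross, at 50.1, 54.5 and 59.4 in gtf2i, and at 137, 131 and 142 in gtf2i/gtf2i. In the ird1 cross it stood at 50.1, 63.5 and 50 CPM in wt, 59.7, 58.0 and 52.0 in ird1, and 56.4, 43.9 and 44.4 in ird1/ird1. The gtf2i/gtf2i libraries stood apart from all 15 others, the lowest at 2.06 times the highest of these, and the other 5 group means lay between 48.2 and 56.6 CPM. The log2 fold change (edgeR) of gtf2i/gtf2i against wt was 1.49 (SE 0.0941), a 2.81-fold difference, and against gtf2i it was 1.32. Pnpla6 (ENSMUSG00000004565) spans chr8:3515235-3544267.

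The other lipid genes, Abca7 and Plin3, also stood highest in gtf2i/gtf2i, by a smaller factor. Abca7 (ENSMUSG00000035722, chr10:79996453-80015572) stood at 30.9, 30.2 and 33.7 CPM in wt, 29.7, 28.9 and 26.2 in gtf2i and 53.1, 48.5 and 57.5 in gtf2i/gtf2i brains. Across the ird1 cross its 9 libraries stood between 29.2 and 36.2 CPM, with group means of 35.2 ± 1.09 in wt, 32.1 ± 0.836 in ird1 and 32.0 ± 2.45 in ird1/ird1. The gtf2i/gtf2i libraries were again above all others, by 1.34 times at the closest, and the log2 fold change against wt was 0.74 (SE 0.108). Plin3 (ENSMUSG00000024197, chr17:56278962-56290511) stood at 28.7, 22.1 and 20.9 CPM in wt, 24.7, 25.5 and 21.8 in gtf2i and 41.6, 47.6 and 35.6 in gtf2i/gtf2i brains. Its highest library outside that group, a wt of the ird1 cross at 32.8 CPM, came close to the lowest gtf2i/gtf2i library, and the group means there were 30.5 ± 2.59 in wt, 26.8 ± 2.10 in ird1 and 23.5 ± 2.65 in ird1/ird1. The log2 fold change of Plin3 in gtf2i/gtf2i against wt was 0.79 (SE 0.145).

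Gas2l1, the cytoskeletal linker (ENSMUSG00000034201, chr11:5054131-5065348), had the second largest change. It stood at 29.9, 28.7 and 31.5 CPM in wt, 32.8, 31.4 and 32.5 in gtf2i and 75.4, 68.6 and 68.7 in gtf2i/gtf2i brains. In the ird1 cross it stood at 32.8, 46.7 and 35.5 CPM in wt, 32.0, 37.9 and 33.8 in ird1 and 27.3, 34.2 and 32.4 in ird1/ird1. The 46.7 came from the library with the lowest total count of all 18, and the lowest gtf2i/gtf2i library still stood at 1.47 times that value. The log2 fold change in gtf2i/gtf2i against wt was 1.23 (SE 0.0970), a 2.35-fold difference. Gas2l1 overlaps Rasl10a in RefSeq, and since the strand setting of the counting is not given in the sources used here, reads of such overlapping genes cannot be told apart. The same holds for Cnp with Dnajc7, Tep1 with Gm52116 and Gm26782, Zfp335 with Zfp335os, and Tmem44 with Gm52252.

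At the cell surface and in myelin biology, Igsf8 and Cnp differed in how cleanly the groups separated. Igsf8 (ENSMUSG00000038034, chr1:172312367-172319843) stood at 155, 118 and 113 CPM in wt, 132, 137 and 144 in gtf2i and 199, 216 and 181 in gtf2i/gtf2i brains. In the other cross it stood at 164, 216 and 154 CPM in wt, 138, 154 and 157 in ird1 and 140, 152 and 139 in ird1/ird1. One wt library of the ird1 cross thus reached the range of the gtf2i/gtf2i libraries, although within the gtf2i cross every gtf2i/gtf2i library was above the wt and gtf2i libraries. Cnp (ENSMUSG00000006782, chr11:100574909-100591875) stood at 19.2, 18.9 and 20.8 CPM in wt, 19.0, 21.3 and 23.1 in gtf2i and 32.0, 37.0 and 33.0 in gtf2i/gtf2i brains. Its means in the ird1 cross were 22.6 ± 1.22 CPM in wt, 21.2 ± 2.92 in ird1 and 19.7 ± 0.187 in ird1/ird1, so every gtf2i/gtf2i library was above all others. The log2 fold changes in gtf2i/gtf2i against wt were 0.62 (SE 0.113) for Igsf8 and 0.78 (SE 0.123) for Cnp.

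Among the nuclear genes, Sirt6 (ENSMUSG00000034748, chr10:81621787-81627792) stood at 57.0, 52.1 and 52.8 CPM in wt, 47.7, 52.7 and 60.1 in gtf2i and 80.9, 93.1 and 85.6 in gtf2i/gtf2i brains. In the other cross it stood at 60.7, 78.3 and 63.1 CPM in wt, 66.2, 64.0 and 57.3 in ird1 and 47.4, 58.5 and 59.2 in ird1/ird1. The separation was narrow, since the wt library at 78.3 lay just under the lowest gtf2i/gtf2i library, and the log2 fold change against wt was 0.67 (SE 0.105). Tep1 (ENSMUSG00000006281, chr14:50824059-50870579) stood at 14.0, 15.7 and 14.8 CPM in wt, 15.4, 16.9 and 18.7 in gtf2i and 22.3, 26.8 and 25.5 in gtf2i/gtf2i brains. One wt library of the ird1 cross, at 22.8 CPM, lay above the lowest of these, where the wt mean was 20.2 ± 3.30, the ird1 mean 15.4 ± 0.568 and the ird1/ird1 mean 18.3 ± 1.00. The log2 fold change of Tep1 against wt was 0.74 (SE 0.136).

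Zfp335 had the smallest change of the 10. Zfp335 (ENSMUSG00000039834, chr2:164891882-164912585) stood at 48.5, 51.4 and 48.3 CPM in wt, 49.6, 56.0 and 51.0 in gtf2i and 68.9, 64.9 and 64.9 in gtf2i/gtf2i brains. Its means in the ird1 cross were 54.5 ± 4.18 CPM in wt, 52.0 ± 1.45 in ird1 and 45.4 ± 3.90 in ird1/ird1, all 9 libraries below the gtf2i/gtf2i range. The log2 fold change in gtf2i/gtf2i against wt was 0.42 (SE 0.0927). Tmem44 (ENSMUSG00000022537, chr16:30511855-30550825) spread most within the mutants, at 131, 118 and 168 CPM in gtf2i/gtf2i against 73.9, 84.4 and 88.7 in wt and 82.2, 88.1 and 89.7 in gtf2i brains. Its means in the ird1 cross were 82.5 ± 13.8 CPM in wt, 85.5 ± 1.79 in ird1 and 73.4 ± 4.92 in ird1/ird1, and its log2 fold change in gtf2i/gtf2i against wt was 0.76 (SE 0.123).

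**Figure D1:**
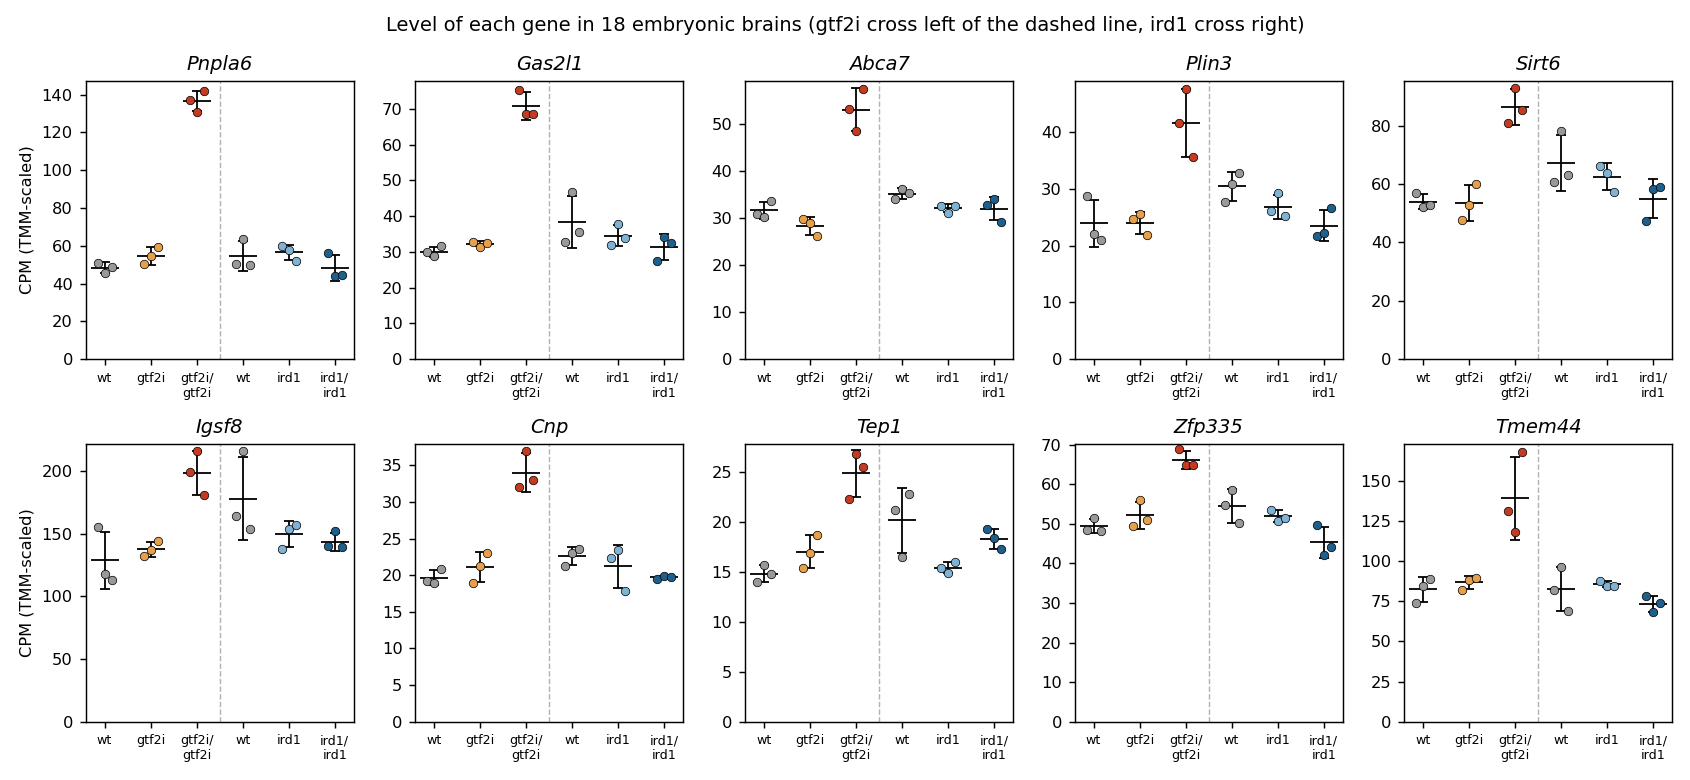
Level of each of the 10 genes in CPM on a linear axis from 0, with 1 point per library, the group mean as a bar and the SD as whiskers (n = 3 per group), gtf2i cross left of the dashed line. For 8 genes the 3 gtf2i/gtf2i points lie above the 15 others, and for Igsf8 and Tep1 a wt point of the ird1 cross reaches them. The members were picked for high gtf2i/gtf2i values.

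By count, all 10 genes had gtf2i/gtf2i libraries that did not overlap with wt, where 7.82% of all genes did so in that direction. At an adjusted p under 0.05 (quasi-likelihood test of edgeR, adjusted by Benjamini-Hochberg over all 11708 genes) 9 of the 10 were called higher, against 0.41% of all genes, and Zfp335 was not, although it was with DESeq2, with RLE scaling and with the trend in transcript length removed, which each called all 10. Since the genes were picked on this contrast, nothing is read from these counts. The title number was shared by 1 library of each genotype in the gtf2i cross, and with it as a block all 10 were called while the number of genes called in all went from 110 to 624. The median log2 fold change of the 10 was 0.75, beside 0.0016 over all genes. Leaving out 1 library at a time, between 5 (without wt replicate 3) and 10 of the genes were called, and Pnpla6, Gas2l1, Abca7, Cnp and Tmem44 were in all 6 such fits. Against the gtf2i libraries the log2 differences of the 10 ran from 0.34 (Zfp335) to 1.32 (Pnpla6), and 9 were called, beside 1.33% of all genes called higher, with 10 called under the block or with the length trend removed and, of single libraries left out, 4 when gtf2i replicate 2 was dropped and 5 when gtf2i/gtf2i replicate 2 was.

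Of the 10 genes, 8 had every gtf2i/gtf2i library above the 15 libraries of all other groups, a pattern held by 239 genes or 2.04% of the table. The number was 9 without gtf2i/gtf2i replicate 1, without ird1-cross wt replicate 2 or without ird1-cross wt replicate 3. The ratio of the lowest gtf2i/gtf2i library to the highest other library was widest for Pnpla6, then Gas2l1 at 1.47, Cnp at 1.36, Abca7 at 1.34, Tmem44 at 1.23, Zfp335 at 1.11, Plin3 at 1.08 and Sirt6 at 1.03. It was 0.84 for Igsf8 and 0.98 for Tep1. The library that came closest was a wt of the ird1 cross for each of the 10. The genes were picked for high gtf2i/gtf2i values, so nothing is read from these counts and ratios.

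The gtf2i libraries were not used to pick the genes, so gtf2i against wt is a test of them, with the limit that the wt libraries were also part of the choice. None of the 10 was called (edgeR's quasi-likelihood test, adjusted p of 1 for each), and 0 of 10 had an unadjusted p under 0.05, where 0.00854% and 1.6% of all genes did. By the same test the 1 gene called was Gtf2i itself (adjusted p = 0.000501), and Gtf2ird1 at 0.55 was not called (adjusted p = 0.15). DESeq2 also called 0 of the 10 members, with 6 genes called in all. The log2 fold changes were 0.18 for Pnpla6 (95% interval -0.031 to 0.38), 0.097 for Gas2l1 (-0.12 to 0.31), -0.17 for Abca7 (-0.41 to 0.074), 0.0030 for Plin3 (-0.32 to 0.33) and -0.013 for Sirt6 (-0.24 to 0.22). They were 0.095 for Igsf8 (-0.15 to 0.34), 0.11 for Cnp (-0.17 to 0.38), 0.20 for Tep1 (-0.10 to 0.50), 0.077 for Zfp335 (-0.12 to 0.28) and 0.071 for Tmem44 (-0.20 to 0.34). Of the 10 values 8 were above 0 (49.6% of all genes were), and their median was 0.086. Abca7 alone did not overlap between gtf2i and wt, lying lower in gtf2i, beside 7.27% of all genes not overlapping in either direction. With the title number as a block 0 of the 10 were called as well. Between gtf2i and wt libraries of the same title number, Pnpla6 and Cnp were higher in gtf2i for all 3 numbers (12.8% of all genes were) and Abca7 was lower for all 3 (12.2%).

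**Figure D2:**
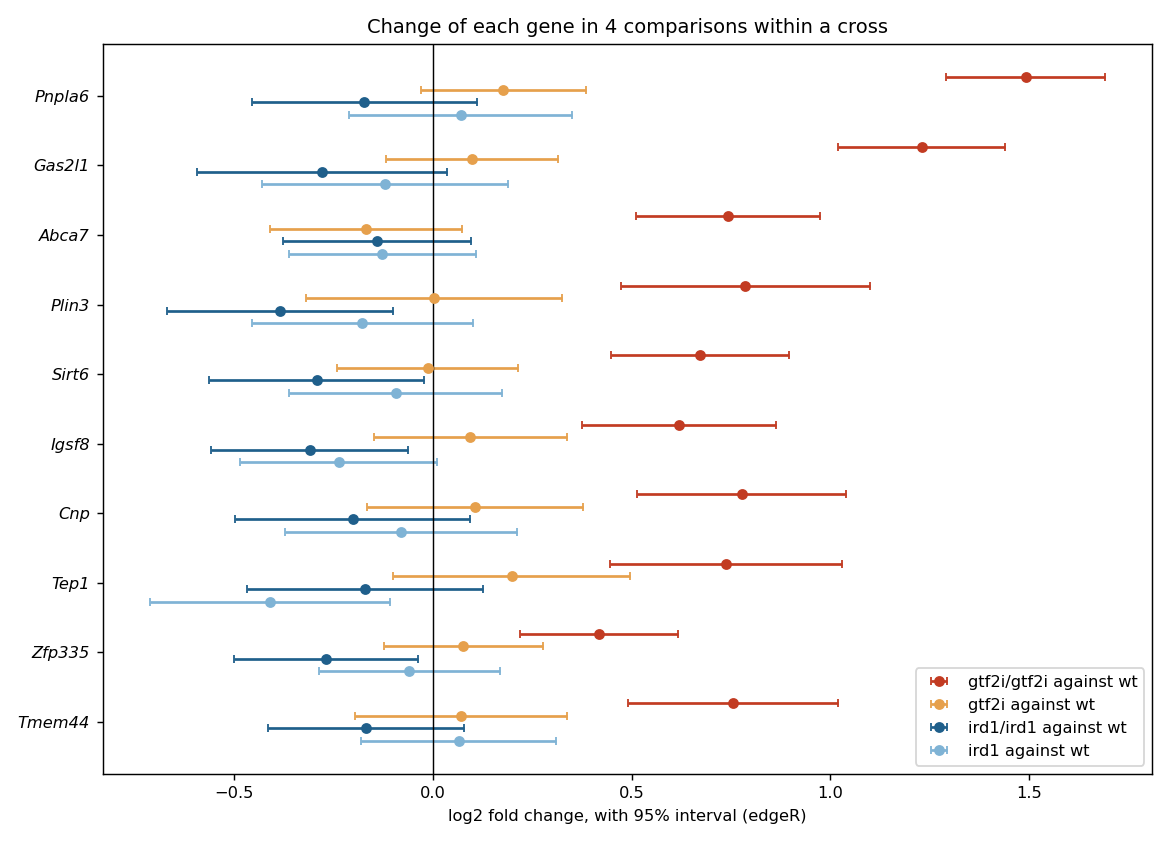
Log2 fold change of each gene with its 95% interval from edgeR in 4 comparisons within a cross (3 libraries per group). The gtf2i/gtf2i points run from 0.42 to 1.49, and those of gtf2i, ird1/ird1 and ird1 against wt lie between -0.41 and 0.20. The members were picked on the gtf2i/gtf2i and ird1/ird1 values, so their intervals and the gap between them are descriptions.

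In the ird1 cross the 10 genes read slightly lower in ird1/ird1 than in wt. The log2 fold changes were -0.17 for Pnpla6, -0.28 for Gas2l1, -0.14 for Abca7, -0.38 for Plin3, -0.29 for Sirt6, -0.31 for Igsf8, -0.20 for Cnp, -0.17 for Tep1, -0.27 for Zfp335 and -0.17 for Tmem44. All 10 were below 0, as were 50.5% of all genes, 6 had libraries that did not overlap (11.8% of all genes in that direction) and 0 were called by edgeR (0.00854% of all genes were) or by DESeq2, with 4 at an unadjusted p under 0.05 (16.1% of all genes). The choice of genes with no rise here favoured values at or below 0, so this is given as a description. The wt library with the lowest total had 9 of the 10 genes above its group mean, and without it the 10 values ran from -0.37 to -0.052 with a median of -0.17, in place of -0.24.

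The ird1 libraries, with 1 mutant Gtf2ird1 allele, were not part of the choice. Against wt, which was, the 10 log2 fold changes ran from -0.41 (Tep1) to 0.070 (Pnpla6), 8 of them below 0 (51.1% of all genes). None was called by edgeR's quasi-likelihood test (adjusted p of 0.997 for each, 0% of all genes called) or by DESeq2, and 1, Tep1, had an unadjusted p under 0.05 (3.02% of all genes). Tep1 stood at 15.4, 14.9 and 16.0 CPM in ird1 against 21.2, 16.5 and 22.8 in wt. Tep1 and Abca7 were the members with ird1 libraries all below wt (3.89% of all genes). Without the wt library of lowest total, 6 of the 10 values were below 0 and their median was -0.041, in place of -0.11.

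Setting both homozygotes side by side, the gtf2i/gtf2i effect minus the ird1/ird1 effect was above 0 for all 10 genes, from 0.68 for Zfp335 to 1.66 for Pnpla6. All 10 were called, beside 0.128% of all genes called higher, which is what the genes were picked on. That share is 15 genes, and the 5 that are not members, named here after their values were seen, were Rps4l (log2 difference 2.98, a ribosomal protein gene with close paralogs, so that its counts are uncertain), Apobec3 (2.56), Nxt2 (1.81), Tmem267 (1.40) and Gm47283 (0.98). The lower reading in ird1/ird1 made up between 10.4% (Pnpla6) and 39.2% (Zfp335) of the difference, with 32.8% for Plin3, 30.3% for Sirt6, 33.4% for Igsf8 and 16.0% for Abca7. These shares depend on single libraries. With 1 library left out, the ird1/ird1 value ran from -0.29 to -0.059 for Pnpla6 and from -0.33 to -0.20 for Zfp335. Leaving out 1 library, between 5 (without gtf2i-cross wt replicate 2) and 10 of the genes were called, and 6 without gtf2i/gtf2i replicate 2 or without ird1/ird1 replicate 3. Of values at the edge of the choice, Zfp335 was the member lowest in gtf2i/gtf2i against wt, and of those 5 other genes Gm47283 was the lowest at 0.52 with an ird1/ird1 value of -0.47.

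Controls of the crosses were compared with each other as a measure of how far the genes vary without either mutation. Between the wt of the gtf2i cross and the wt of the ird1 cross, log2 differences ran from -0.47 (Tep1) and -0.46 (Igsf8) to 0.0099 (Tmem44), 9 of 10 below 0 (51.2% of all genes). By edgeR's quasi-likelihood test 0 of the 10 were called (adjusted p from 0.0689 to 0.964, with 0% of all genes called) and 5 had an unadjusted p under 0.05, namely Gas2l1, Plin3, Sirt6, Igsf8 and Tep1, where 32.7% of all genes did. DESeq2 called 1 of them, Igsf8, beside 1561 of all genes. Leaving out ird1-cross wt replicate 1, edgeR called 1 member and 1032 of all genes. Leaving out gtf2i-cross wt replicate 1, edgeR called 2 members and 2076 of all genes. Both wt groups were part of the choice, which favours a low wt in the first cross and a high one in the second. The heterozygous groups were not: gtf2i against ird1 gave log2 differences from -0.22 (Sirt6, 95% interval -0.46 to 0.018) to 0.14 (Tep1, -0.13 to 0.42). Of the 10, 0 were called by edgeR (0.00854% of all genes) and 0 by DESeq2, which called 328 of all genes. At an unadjusted p under 0.05 by edgeR there were 0, beside 22.8% of all genes. Genotype and cross cannot be told apart in that comparison.

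Neighbouring genes on the chromosome were measured as well. The nearest measured gene of each member gave 10 neighbours, whose log2 fold changes in gtf2i/gtf2i against wt ran from -0.28 (Ticam1) to 0.30 (Cnn2) with a median of -0.0016, and 5 were above 0. None was called by edgeR's quasi-likelihood test, where 0.94% of all genes were, and 1 had an unadjusted p under 0.05, as did 14.4% of all genes. Mcoln1, which lies 3 bases from Pnpla6 and encodes a lysosomal ion channel, stood at -0.026 (adjusted p = 0.955). Ankrd24, 29 bases from Sirt6, stood at -0.047 (adjusted p = 0.928), and Dnajc7, which overlaps Cnp, at 0.055 (adjusted p = 0.833). Cnn2, 1053 bases from Abca7, stood at 0.30 (adjusted p = 0.467), and Pcif1, 442 bases from Zfp335, at -0.12 (adjusted p = 0.608).

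**Figure D3:**
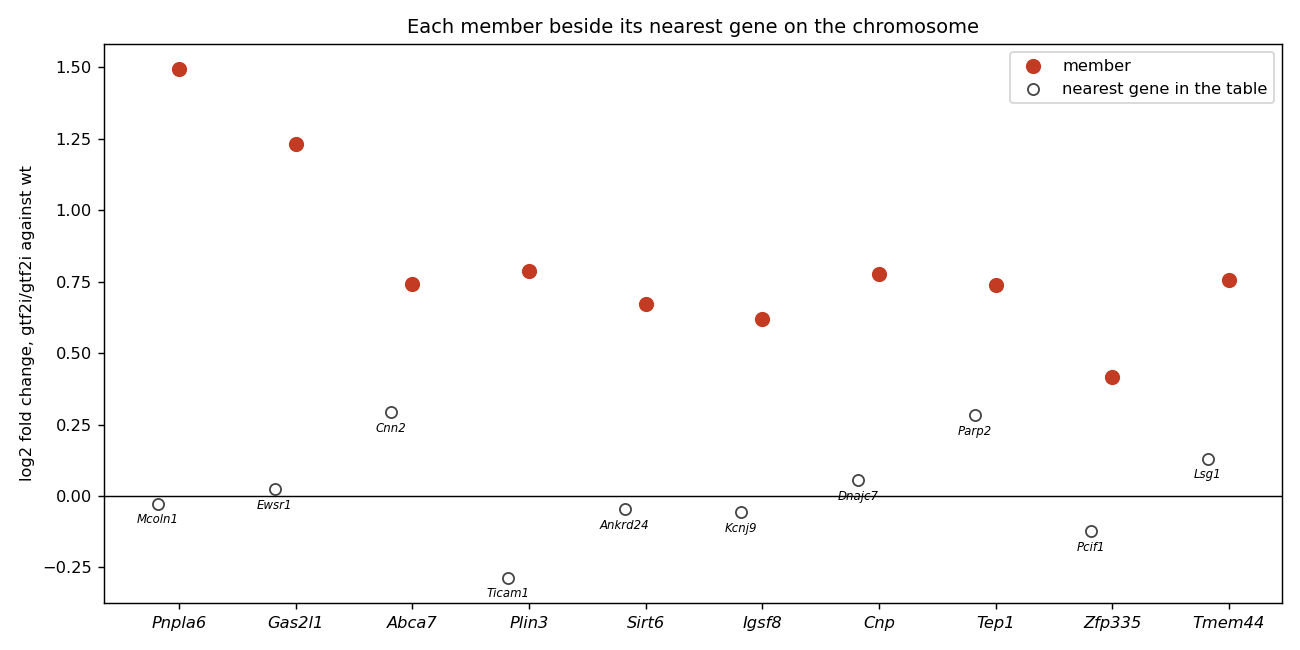
Log2 fold change of gtf2i/gtf2i against wt (vertical axis) for each of the 10 genes (red) and its nearest measured gene on the chromosome (open circles). Neighbours lie between -0.28 and 0.30, and the red values are those the members were picked on.

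Relatives and partners of the 10 genes were set beside them. The 9 lists held 97 genes, of which 75 were in the table, and 0 were called in any of the 8 comparisons by edgeR's quasi-likelihood test. Their unadjusted counts in gtf2i/gtf2i against wt stand beside the 14.4% of all genes with an unadjusted p under 0.05. In gtf2i/gtf2i against wt the 11 measured patatin-like phospholipases and lysophospholipid enzymes, among them Pnpla2, Pnpla7 and Pnpla8, had a median log2 fold change of -0.10, with 10 below 0 and 0 at an unadjusted p under 0.05. The 10 measured lipid droplet genes, which include Plin2 and the triglyceride synthases Dgat1 and Dgat2, had a median of -0.15 and 1 unadjusted p under 0.05. The 5 measured ABCA transporters other than Abca7 were all below 0 (median -0.078, 1 unadjusted), and the 7 genes of the GAS2 family, spectraplakins and microtubule end-binding proteins had a median of -0.043 (1 unadjusted). For all genes the median was 0.0016.

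The 6 other sirtuins were all above 0 but small, from 0.011 to 0.23 with a median of 0.068 and 0 at an unadjusted p under 0.05. The 8 tetraspanins and relatives of Igsf8 had a median of -0.16 and 3 unadjusted p-values under 0.05, with the highest value 0.82 for Cd9, named after its value was seen and not called (adjusted p = 0.115, edgeR). The 8 measured telomerase and vault genes had a median of 0.042 (0 unadjusted), and the 14 measured subunits and cofactors of histone methyltransferase complexes a median of 0.017 (1 unadjusted). The oligodendrocyte lineage list, set beside Cnp, had 7 of 12 genes in the table with a median of 0.20 and 2 unadjusted p-values under 0.05. Its myelin genes Mog and Mag and the lineage gene Sox10 were not in the table, and its summed level was 132 to 152 CPM in wt and 149 to 174 in gtf2i/gtf2i brains.

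**Figure D4:**
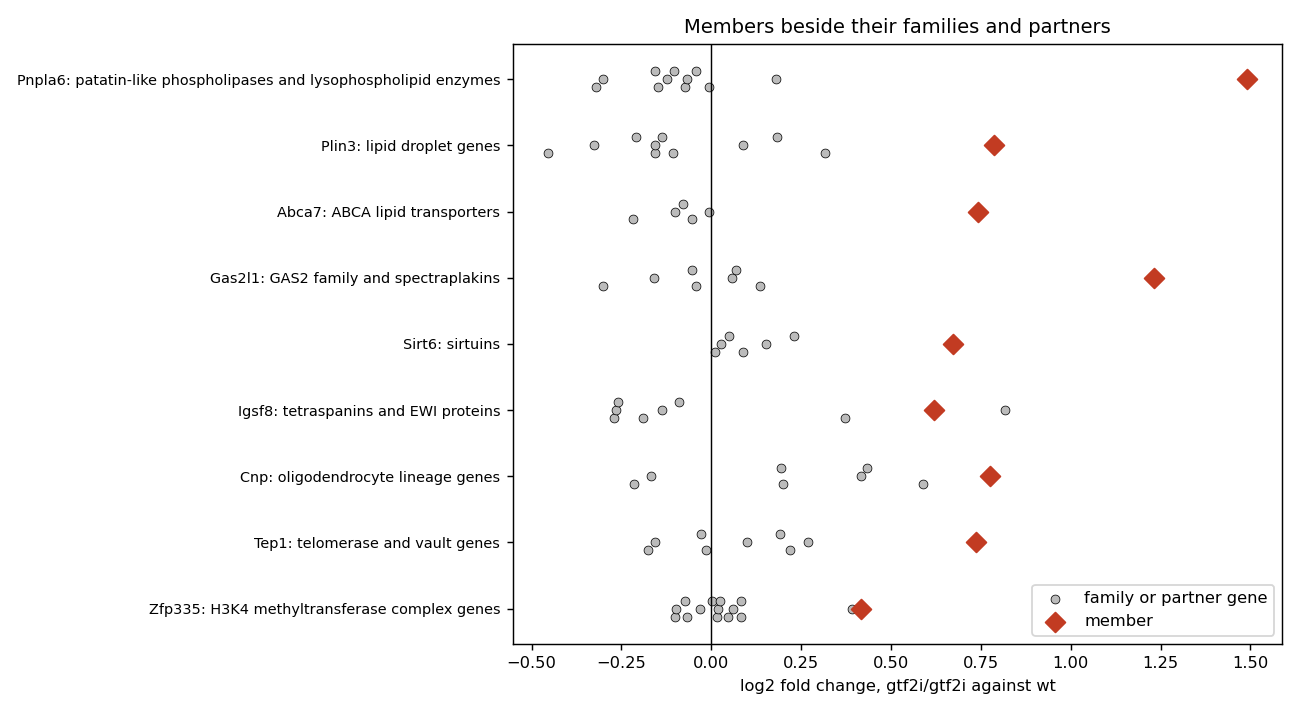
Log2 fold change of gtf2i/gtf2i against wt (horizontal axis) for the measured genes of each family or partner list (grey) and for the member the list was drawn up for (red diamond). Grey points reach up to 0.82 (Cd9), and the red values are those the members were picked on, so the distance between red and grey is no comparison.

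Cell makeup was read from marker lists, and in bulk tissue fewer cells of a type and less RNA per cell cannot be told apart. In gtf2i/gtf2i against wt, 49.6% of all genes were below 0, 0.53% were called lower and 0.41% called higher. Telencephalic markers moved with the gtf2i/gtf2i genotype, 17 of 17 below 0 and 7 called lower by edgeR, with summed levels of 1440 to 1560 CPM in gtf2i/gtf2i and 1910 to 2150 in wt. Red blood cell markers moved the other way, 8 of the 8 measured above 0 and 2 called, at 5790 to 9180 CPM against 4090 to 5310. All 18 neuronal markers were in the table, as the tissue label would have it, and 15 of them were below 0, with sums of 6870 to 9190 CPM in gtf2i/gtf2i and 8520 to 9400 in wt. Radial glial markers were above 0 for 11 of 16 with 2 called lower (3700 to 4250 CPM against 3100 to 3540), mesenchymal markers for 12 of 15 (1970 to 2870 against 1800 to 2000) and endothelial markers for 6 of 14 (510 to 596 against 479 to 575). Of the choroid plexus markers 5 of 10 were in the table, 1 of them called lower (200 to 236 CPM against 287 to 376), and of the microglial markers 5 of 12, all above 0 (65.1 to 82.7 against 50.1 to 70.0). Their part in the levels of the 10 genes was not tested.

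Over the 18 libraries the 10 genes followed one another, as their choice implies: the 45 pairwise Pearson correlations of log2 CPM had a median of 0.81 (0.54 to 0.94) and all were above 0, where the median over all gene pairs was -0.0009. Deviations from group means gave a median of 0.12 (-0.72 to 0.62) with 25 of the 45 pairs above 0, beside a median of -0.0008 and 49.9% above 0 over all gene pairs. The non-member genes whose pattern was most like the mean of the 10 over the libraries were Rps4l (r = 0.95), Tmem267 (0.90), Wscd2 (0.89), Bbc3 (0.88) and Tcirg1 (0.87). Their log2 fold changes in gtf2i/gtf2i against wt were 2.64, 1.21, 0.55, 0.52 and 1.37 in that order. By deviations within groups the most alike were Aplp1 (r = 0.96), Brd2, Tbc1d16, Gpsm1 and Sbk1, and their gtf2i/gtf2i values lay between -0.39 and -0.072. The points of these correlations share depth, scaling and genotype groups, so they are given as descriptions with no p-value.

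In size and level the 10 genes lay within the range of the table. The median transcript length was 4112 bases (all genes 3634), the median genomic span 18044 bases (all genes 26024), and mean levels ran from percentile 26.3 (Tep1) to 87.7 (Igsf8) of all genes.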

How the data were processed

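Gene expression was measured in 18 E13.5 brain libraries. The authors deposited whole-number read counts per gene, not normalized, with 1 transcript length per gene, for 11708 genes, per the file headers. Per the submitters' processing notes, Trimmomatic, STAR and HTSeq were used with build mm10; versions, strand setting and the filter behind the table (smallest count 10 to 22 by library) are not given in the sources used here, and a gene silent in 1 group is not analysed. Total counts of 3239117 to 7371483 set the counting error, which is largest for the least abundant genes.

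Counts were scaled by TMM and fitted with the quasi-likelihood model of edgeR (R 4.3.3, edgeR 4.0.16, limma 3.58.1), with Benjamini-Hochberg adjustment over all genes and a threshold of 0.05. Contrasts within a cross used its 9 libraries, others all 18. The gtf2i/gtf2i value is given relative to wt unless another group is named, and CPM are computed from the scaled totals of all 18 libraries. Alternatives were DESeq2 1.42.0, RLE scaling, no filter, removal of a trend with transcript length (lowess span 0.3), the title number as a block and each library left out.

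The members and gene lists were chosen with earlier results of these data known. Named genes were the 10 members, Gtf2i, Gtf2ird1, any listed relative that was called, and the 5 genes most like the members' mean by each of 2 correlations over 18 libraries (pseudocount 0.5). Cd9 and the non-member genes called higher in the difference were named after their values were seen. Neighbours were taken by position, and a few neighbouring and marker genes are not reported here. The labels do not say that embryos came from separate litters, so p-values measure only the spread between these samples, which may be technical in part. Titles start with a number whose meaning is not stated. Between wt and gtf2i/gtf2i libraries of the same number, deviations from group means correlated at 0.379 (11619), 0.103 (12301) and 0.523 (12419). Between wt and gtf2i/gtf2i libraries of different numbers they ran from -0.439 to 0.205. Numbers were therefore taken to pair libraries in the fits with the block. The main fits, with their SEs and intervals, left the pairing out. For pairs of the same number with gtf2i the lowest was 0.0485, and the ird1 cross averaged 0.0127 (11610) and 0.000767 (11902). Replicates are numbered in accession order.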

Additional observations from a re-analysis of the deposited data

Results flagged for a closer look

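The effect of gtf2i/gtf2i minus that of ird1/ird1, fitted on all 18 libraries, singled out all 10 genes, which were picked for it, so the values are descriptions. On the log2 scale they were 1.66 for Pnpla6, 1.51 for Gas2l1, 0.88 for Abca7, 1.17 for Plin3, 0.96 for Sirt6, 0.92 for Igsf8, 0.98 for Cnp, 0.90 for Tep1, 0.68 for Zfp335 and 0.92 for Tmem44. For Gtf2i itself, which was not picked, the difference was -2.88 (edgeR's quasi-likelihood test, adjusted p = 3.89e-14).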

How the results depend on the processing

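The members' direction in gtf2i/gtf2i against wt or gtf2i, in ird1/ird1 against wt and in the difference was the same in every setting run. Each of these contrasts holds homozygous libraries that the genes were picked on, so their stable direction is a description. Genes called in gtf2i/gtf2i against wt numbered 110, then 322 with DESeq2, 293 with the length trend removed, 624 with the replicate block, 844 with both, and 28 to 1159 with 1 library left out (members called 5 to 10). Against gtf2i they numbered 365, then 892 with the block, 1097 with both, and 67 to 1376 leaving out 1 library (members 4 to 10). For the difference they numbered 20, then 84 with DESeq2, 32 with length, 83 with the block, 77 with both, and 12 to 723 leaving out 1 library (members 5 to 10). In gtf2i against wt 1 gene was called, then 6 with DESeq2, 2 with the block and 5 with both. In ird1 against wt 0 were called, then 1 with DESeq2 and 0 to 1 leaving out 1 library. Between the wt groups 0 were called, then 1561 with DESeq2 (members 0 and 1) and 0 to 2076 leaving out 1 library (members 0 to 2). Between heterozygotes 1 was called, then 328 with DESeq2 and 2 with the length trend removed. The separation count, which the choice of genes favours, stayed at 8 to 9 leaving out 1 library, an alternative chosen after seeing the data. The cause was not tested. The replicate block added Zfp335 to the members called in gtf2i/gtf2i against wt (log2 fold change 0.42) and against gtf2i (0.34), contrasts that hold the libraries it was picked on, and changed no other call of the 10 genes; neighbours, relatives and markers were not fitted with it. For the difference between the homozygous effects the block was fitted within each cross. It was not fitted for the wt and the heterozygote comparisons between the crosses, which share no title number. No paired analysis was possible in those comparisons for that reason.

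Reversals of sign, 30 in all and none called, touched only values of at most 0.144 in size in the main fit (Tep1 between heterozygotes). The largest size after reversal was 0.106. With the length trend removed, Sirt6 in gtf2i against wt became 0.014, and 0.013 with the block added. Tmem44 between the wt groups became -0.060. Between heterozygotes Cnp became 0.041 (8.835e-05 with DESeq2), Tep1 -0.054, Zfp335 -0.056 and Tmem44 -0.040. Leaving out 1 library, ranges crossing 0 were, in gtf2i against wt, -0.090 to 0.16 for Plin3, -0.11 to 0.066 for Sirt6 and -0.0018 to 0.13 for Tmem44. In ird1 against wt they were -0.22 to 0.022 for Gas2l1, -0.16 to 0.017 for Sirt6, -0.17 to 0.034 for Cnp and -0.051 to 0.18 for Tmem44. Between the wt groups the range was -0.11 to 0.13 for Tmem44, and between heterozygotes -0.12 to 0.0015 for Pnpla6, -0.11 to 0.075 for Cnp, -0.053 to 0.030 for Zfp335 and -0.0085 to 0.047 for Tmem44.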
